A study of Rattus norvegicus with 18 samples.

Results

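The genes described here are the RANKL axis and a set of osteoclast markers, measured in cultured bone marrow stromal cells of rats fed a high-fat diet (HFD) or a normal diet (ND). There were 7: Tnfsf11, which encodes the cytokine RANKL, Tnfrsf11b, which encodes its decoy receptor osteoprotegerin (OPG), Tnfrsf11a, which encodes its signalling receptor RANK, and the osteoclast genes Nfatc1, Acp5, Ctsk and Calcr. They were found as the probe sets whose annotated symbol is exactly one of these names, which gave 9 of the 31099 probe sets of the array. Of these 9 probe sets, 4, one each for Tnfrsf11b, Nfatc1, Acp5 and Ctsk, lay above a filter that leaves out the dimmest 30% of probe sets. The other 5, which are all the probe sets of Tnfsf11, Tnfrsf11a and Calcr, lay below it.

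In bone, RANKL made by stromal and osteoblast-lineage cells, by osteocytes and by lymphocytes binds RANK on monocyte and macrophage precursors and turns them towards osteoclasts, the multinucleated cells that resorb bone. OPG is secreted by stromal cells, among others, and holds RANKL away from RANK. RANK signalling runs through TRAF6, NF-kappaB, AP-1 and calcineurin to the transcription factor NFATc1, which switches on resorption genes such as Acp5 (tartrate-resistant acid phosphatase), Ctsk (the collagen-degrading protease cathepsin K) and Calcr (the calcitonin receptor). Acp5 is also expressed by macrophages, and Ctsk also by fibroblasts.

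Sprague-Dawley rats, 6 weeks old at the start, received either diet for 1, 2 or 4 months. The HFD groups ate 60% basal diet with 20% lard, 10% sucrose and 10% egg yolk powder, and the ND groups ate 100% basal diet. Adherent cells were grown by plating whole marrow, a method that can carry macrophages along, and are called mesenchymal stem cells in the labels, at passage 3 in the sample labels and passage 1 in the series text. Total RNA was measured on 18 Affymetrix arrays, 3 for each diet and time; the labels name neither single rats nor batches, so p-values measure the spread between these arrays, which may be partly technical. All groups shared the strain, the tissue and the culture method, and the labels name no agent that drives cells towards osteoclasts. In bulk RNA of this kind, fewer cells of a type and less RNA per cell cannot be told apart.

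The labelled cell type was checked against its markers. Of 12 stromal genes on the array, 11 were above the filter. Col1a1 and Thy1, among the brightest, lay between 12.04 and 12.70 and between 11.71 and 12.13 log2 intensity on all 18 arrays. Lepr lay below the filter (median 2.72), and Vcam1 was dim and varied, from 2.56 to 6.77 with a median of 4.08. Of 27 macrophage genes on the array, 27 were above the filter, and the level of most differed widely between arrays. Tyrobp ranged from 4.71 to 10.70 and Csf1r from 3.39 to 8.19. By contrast, Cx3cr1 (3.18 to 3.96) and Ncf1 (2.99 to 4.11) varied little and lay near the filter level. Of 12 lymphocyte genes on the array, 5 lay below the filter (Cd3d, Cd3g, Cd5, Cd79b and Ms4a1) and 7 above it, the brightest by median being Lck (5.42), Zap70 (4.72) and Cd4 (4.57). The mean of 10 stromal genes with a value on every array was lower in the HFD 2-month arrays, at 9.76 to 9.86, than in the other 15 arrays, at 10.02 to 10.36. At 2 months 2 of the 11 stromal genes above the filter fell in HFD and 0 rose, while 2.54% of all tested probe sets passed. They were Cxcl12, a chemokine of the marrow niche (-3.20 log2, limma, adjusted p = 0.00922), and Pdgfra, a stromal growth factor receptor (-1.08, adjusted p = 0.0427). The mean of the 8 genes left without these 2 was 9.79 to 10.02 in the HFD 2-month arrays and 9.74 to 10.09 in the ND 2-month arrays. By direction alone, 6 of the 11 genes were higher in HFD at 2 months and 5 lower (median difference 0.05 log2). Median linear intensity per array ran from 25.4 to 27.1. The values deposited for ND 1-month replicate 1 were displaced upward in the table by 1343 rows and were put back; Acp5 is among the probe sets left with no value on that array, so its ND 1-month group has 2 arrays.

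Upstream sequence was at hand for 4 of the 7 genes. Those of Ctsk, a gene well above the filter, and of Tnfsf11, the ligand, which was below it, are shown as a measured and an unmeasurable end of the pathway. Each is the 250 bases before the gene's annotated start in RefSeq (GRCr8 assembly), read 5′ to 3′ on the gene's strand: chr2:185747298-185747547 on the plus strand for Ctsk and chr15:60114480-60114729 on the minus strand for Tnfsf11. Capitals mark GGAAA or its complement TTTCC, the core that NFAT proteins bind, which was searched on both strands with no other motif.

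Ctsk: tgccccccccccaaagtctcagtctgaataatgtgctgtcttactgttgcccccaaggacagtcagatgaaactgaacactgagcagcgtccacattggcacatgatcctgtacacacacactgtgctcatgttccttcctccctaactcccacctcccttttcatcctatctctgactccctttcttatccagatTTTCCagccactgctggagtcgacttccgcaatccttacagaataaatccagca

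Tnfsf11: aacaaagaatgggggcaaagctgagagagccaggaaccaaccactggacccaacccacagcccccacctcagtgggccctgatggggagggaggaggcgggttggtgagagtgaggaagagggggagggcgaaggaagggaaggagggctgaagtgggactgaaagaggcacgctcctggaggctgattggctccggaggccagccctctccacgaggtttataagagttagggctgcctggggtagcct

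The Ctsk window held 1 such core, 54 bases before the start, and had a G+C content of 49.6% with 3 CG dinucleotides. The Tnfsf11 window held 0 and had 61.6% G+C with 5 CG dinucleotides. Of the 33469 RefSeq windows of this length, 56.9% held the core on either strand, and the median window had 51.2% G+C and 5 CG dinucleotides. The Calcr window (chr4:32691076-32691325, minus strand) held 0 cores and was 70.0% G+C with 25 CG dinucleotides. Acp5 had 2 annotated starts, whose windows held 0 and 2 cores at 67.2% and 57.2% G+C. A match of 5 letters describes these windows and says nothing about binding in the cells.

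The ligand and its signalling receptor were at the floor of the arrays. The first Tnfsf11 probe set lay between 1.97 and 2.5 log2 intensity over the 18 arrays, with a median of 2.19, and the second between 1.72 and 2.36, with a median of 2.06. Tnfrsf11a lay between 1.77 and 2.42, with a median of 2.08. The 2 Calcr probe sets lay between 1.86 and 2.63 and between 1.80 and 2.66. In linear intensity these 90 values ran from 3.29 to 6.31, and 0 of them reached the filter level of 9.34, or 3.22 on the log2 scale. RANKL mRNA, RANK mRNA and calcitonin receptor mRNA were therefore not measurable above the dim end of the array in either diet. This does not show that they are absent. No array had a signal above the filter from these probe sets, so low mRNA and an unresponsive probe set cannot be told apart. The only Tnfrsf11a probe set, like that of Nfatc1, was designed on an expressed sequence tag.

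The 2 Tnfsf11 probe sets nevertheless had small differences at this floor. At 2 months the second probe set had 2.14, 2.10 and 2.22 in the HFD arrays, against 1.85, 1.72 and 1.95 in the ND arrays. The first had 2.44, 2.42 and 2.32 in the HFD arrays at that time, against 2.21, 2.15 and 2.17 in the ND arrays. In both the HFD arrays lay above the ND arrays with no overlap, within a span far below the filter level. The share of all probe sets whose arrays did not overlap was not counted, here or for the genes below. At 2 months 20.8% of the tested probe sets had an unadjusted p under 0.05 in limma. At 4 months the second probe set had 2.36, 2.30 and 2.29 in the HFD arrays and 2.05, 1.85 and 2.13 in the ND arrays, again with no overlap. The first went the other way by its means at that time, with 2.19, 2.18 and 2.19 in the HFD arrays and 2.17, 2.40 and 2.20 in the ND arrays, which overlapped. In a limma fit with no filter, the 5 dim probe sets had differences between -0.21 and 0.36 log2 over 50 comparisons, none passed (lowest adjusted p = 0.119), and 4 had an unadjusted p under 0.05, all of them the second Tnfsf11 probe set. No fold is given for these genes, and no ratio of RANKL to OPG was formed, because its numerator was below the filter in every array.

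**Figure D1:**
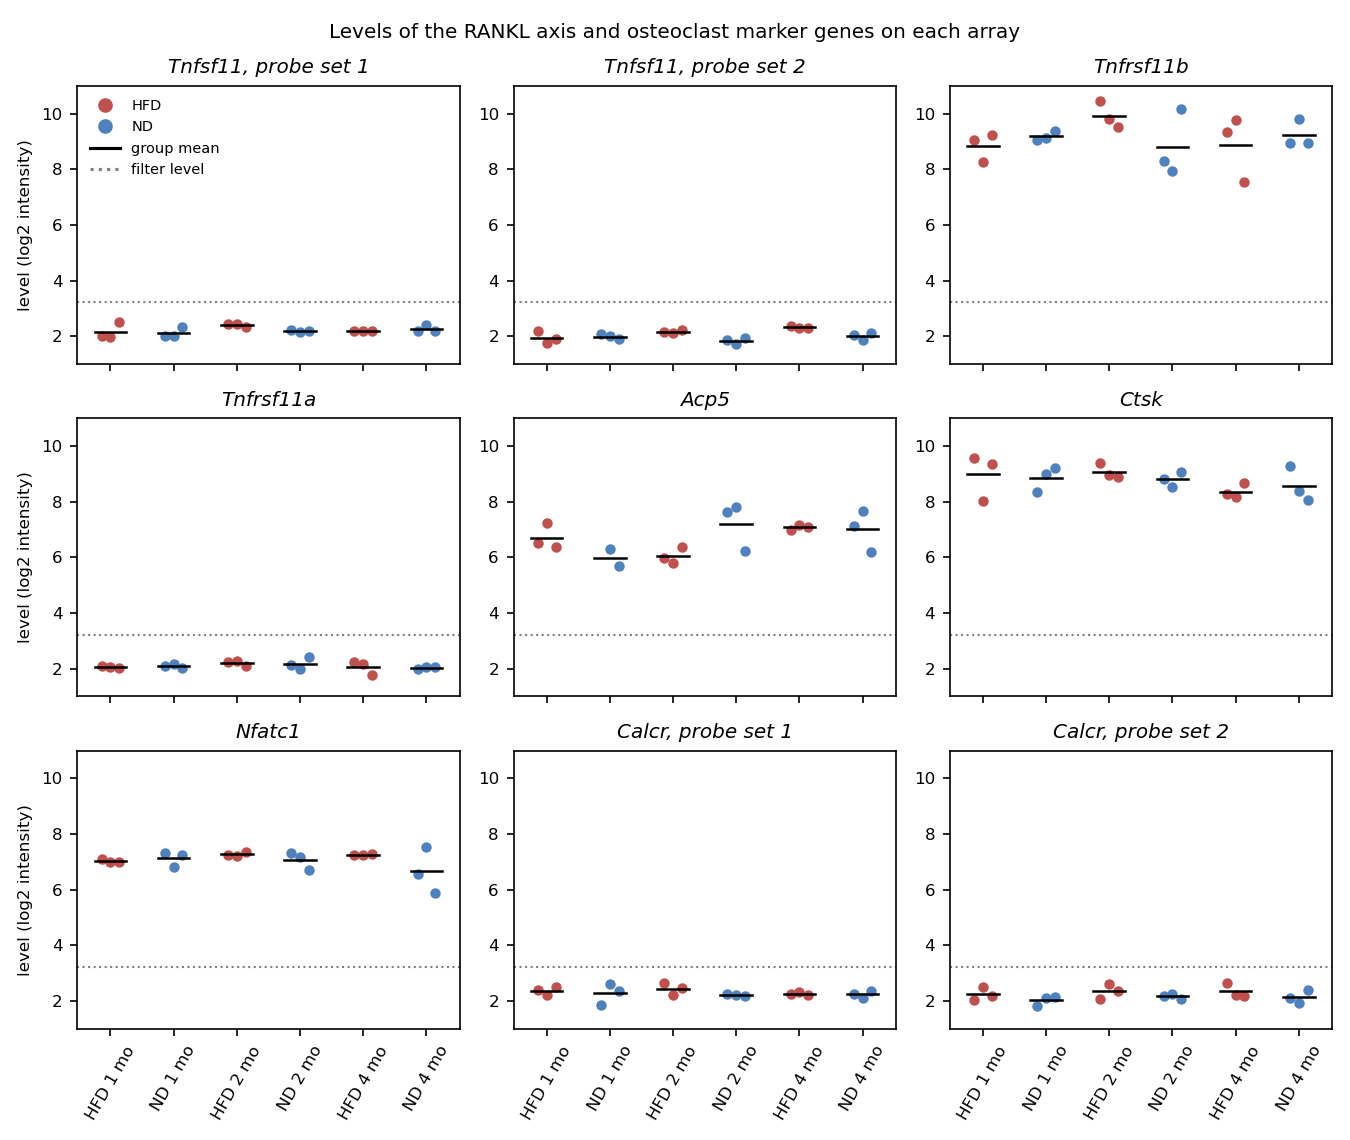
Level of each of the 9 probe sets on each array, in log2 intensity, with 1 point per array, a black bar at the group mean and a dotted line at the filter level of 3.22. The 5 probe sets of Tnfsf11, Tnfrsf11a and Calcr lie below the line on all arrays, and those of Tnfrsf11b, Acp5, Ctsk and Nfatc1 lie above it on all arrays with a value.

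None of the 4 genes above the filter passed the diet test at any feeding time. At 1 month 0 of 4 passed in limma (adjusted p under 0.05, with 21729 probe sets in the adjustment), against 0% of all probe sets. At 2 months 0 of 4 passed, against 2.54% of all probe sets, and 1 of the 4, Acp5, had an unadjusted p under 0.05, as did 20.8% of all probe sets. At 4 months 0 of 4 passed, against 0%. Averaged over the 3 times 0 of 4 passed, against 2.82%. The unadjusted count was 0 of 4 at 1 month, at 4 months and in the average, beside 9.77%, 3.73% and 21.4% of all probe sets. The F test for diet effects that varied with time passed for 0 of 4 and for 0% of all probe sets, with Acp5 the 1 gene at an unadjusted p under 0.05, beside 6.74% of all probe sets. With 4 genes, these shares are too small a count to set against the background.

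Tnfrsf11b, the OPG gene, was expressed well above the filter in every array, from 7.54 to 10.47 log2 intensity with a median of 9.17. At 1 month it had 9.06, 8.26 and 9.23 in the HFD arrays, against 9.07, 9.12 and 9.37 in the ND arrays. At 2 months it had 10.47, 9.81 and 9.51 in the HFD arrays, against 8.29, 7.93 and 10.18 in the ND arrays. At 4 months it had 9.33, 9.76 and 7.54 in the HFD arrays, against 8.96, 9.82 and 8.96 in the ND arrays. The groups overlapped at every time, and single arrays, ND 2-month replicate 3 and HFD 4-month replicate 3, stood away from the other 2 of their group. The difference was largest at 2 months, at 1.13 ± 0.58 log2 (SE), a 2.19-fold higher mean in HFD with a 95% interval of -0.12 to 2.38 log2, and did not pass (limma, adjusted p = 0.282). It was -0.34 ± 0.58 at 1 month (adjusted p = 0.904) and -0.37 ± 0.58 at 4 months (adjusted p = 0.999), and 0.14 ± 0.34 over the 3 times (adjusted p = 0.849). Leaving out 1 array at a time moved the 2-month difference between 0.70 and 1.82, the highest without ND 2-month replicate 3 (adjusted p = 0.0765). Its 4-month difference lay between -0.81 and 0.30 in such fits, and was 0.30 without HFD 4-month replicate 3. With array weights, which let the fit count discordant arrays less, the 2-month difference was 1.53 and passed (limma, adjusted p = 0.0451). In that fit 4330 of the 21729 probe sets passed at 2 months, against 552 in the reported fit.

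Over the 6 groups, Tnfrsf11b was ordered HFD 2 months, ND 4 months, ND 1 month, HFD 4 months, HFD 1 month and ND 2 months. The group means were 9.93 ± 0.49, 9.24 ± 0.50, 9.18 ± 0.16, 8.87 ± 1.18, 8.85 ± 0.52 and 8.80 ± 1.21 log2 in that order (SD, n = 3 each). No neighbours in this order differed by more than the pooled within-group SD of 0.78.

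Nfatc1, the master transcription factor of osteoclast formation that is also expressed in many other cells, lay between 5.88 and 7.54 with a median of 7.22. At 1 month it had 7.12, 7.0 and 7.0 in the HFD arrays, against 7.31, 6.82 and 7.26 in the ND arrays. At 2 months it had 7.26, 7.19 and 7.35 in the HFD arrays, against 7.33, 7.18 and 6.70 in the ND arrays. At 4 months it had 7.24, 7.25 and 7.29 in the HFD arrays, against 6.57, 7.54 and 5.88 in the ND arrays. The HFD arrays of a time lay close together and within the range of the ND arrays of the same time except for 1 array at 2 months. The difference was -0.10 ± 0.29 log2 at 1 month, 0.19 ± 0.29 at 2 months and 0.59 ± 0.29 at 4 months (SE, adjusted p = 0.951, 0.727 and 0.999), and 0.23 ± 0.17 over the 3 times (limma, adjusted p = 0.455). Without single arrays the 4-month difference lay between 0.20 and 1.03. No neighbours in the order of group means differed by more than the pooled SD of 0.38; the means were 7.27 ± 0.08 (HFD 2 months), 7.26 ± 0.02 (HFD 4 months), 7.13 ± 0.27 (ND 1 month), 7.07 ± 0.33 (ND 2 months), 7.04 ± 0.07 (HFD 1 month) and 6.67 ± 0.83 (ND 4 months, SD, n = 3 each).

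Acp5 had the most varied diet differences. At 1 month it had 6.51, 7.25 and 6.37 in the HFD arrays, against 6.29 and 5.68 in the 2 ND arrays with a value. At 2 months it had 5.99, 5.81 and 6.37 in the HFD arrays, against 7.62, 7.80 and 6.22 in the ND arrays. At 4 months it had 6.97, 7.17 and 7.09 in the HFD arrays, against 7.14, 7.68 and 6.20 in the ND arrays. The HFD arrays were above the 2 ND arrays with no overlap at 1 month; the ND array with no Acp5 value had the highest mean of 24 macrophage genes in its group (8.80, against 5.29 and 4.03 in the other ND arrays). By contrast, at 2 months 2 of the 3 ND arrays stood above all HFD arrays and ND replicate 3 lay among them. The difference was 0.72 ± 0.47 log2 at 1 month (SE, adjusted p = 0.660; -0.37 ± 0.31 with the macrophage mean as a covariate, adjusted p = 0.605), -1.15 ± 0.42 at 2 months, with a 95% interval of -2.05 to -0.25, and 0.07 ± 0.42 at 4 months (adjusted p = 0.999). The 2-month mean was 2.22-fold lower in HFD, at an unadjusted p = 0.0158 and an adjusted p = 0.148 in limma. Over the 3 times the difference was -0.12 ± 0.25 (adjusted p = 0.823). In limma's F test of diet effects that vary with time its adjusted p was 0.692, with an unadjusted p of 0.0299.

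The 2-month Acp5 difference depended on the arrays and on the weights given to them. Without ND 2-month replicate 3 it was -1.65 (limma, adjusted p = 0.0448), and with array weights -1.58 (adjusted p = 0.00539). Of the 21729 probe sets, 471 and 4330 passed in these fits in that order, against 552 in the reported fit. Without single arrays the 2-month Acp5 difference lay between -1.65 and -0.86. Its group means were 7.21 ± 0.86 (ND 2 months), 7.07 ± 0.10 (HFD 4 months), 7.01 ± 0.75 (ND 4 months), 6.71 ± 0.47 (HFD 1 month), 6.06 ± 0.29 (HFD 2 months) and 5.99 ± 0.43 (ND 1 month, n = 2) log2, with SD over 3 arrays elsewhere. Between neighbours in this order, the one gap wider than the pooled SD of 0.56 was that of 0.65 between HFD 1 month and HFD 2 months.

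Ctsk lay between 8.04 and 9.56 with a median of 8.84 and had the smallest difference over the 3 times of the 4 genes. At 1 month it had 9.56, 8.04 and 9.37 in the HFD arrays, against 8.36, 8.98 and 9.20 in the ND arrays. At 2 months it had 9.38, 8.96 and 8.87 in the HFD arrays, against 8.81, 8.53 and 9.06 in the ND arrays. At 4 months it had 8.27, 8.17 and 8.66 in the HFD arrays, against 9.27, 8.37 and 8.07 in the ND arrays. The groups overlapped at every time. The difference was 0.14 ± 0.37, 0.27 ± 0.37 and -0.21 ± 0.37 log2 at 1, 2 and 4 months and 0.07 ± 0.22 over the 3 times (SE; limma, adjusted p = 0.945, 0.699, 0.999 and 0.895). Without single arrays the difference lay between -0.15 and 0.61 at 1 month, between 0.12 and 0.40 at 2 months and between -0.46 and 0.14 at 4 months, so that its sign turned at 1 and 4 months. The interval of the average over the times, -0.39 to 0.53 log2, still holds differences of up to 1.44-fold. Group means were 9.07 ± 0.27 (HFD 2 months), 8.99 ± 0.83 (HFD 1 month), 8.85 ± 0.44 (ND 1 month), 8.80 ± 0.26 (ND 2 months), 8.57 ± 0.62 (ND 4 months) and 8.36 ± 0.26 (HFD 4 months, SD, n = 3 each), with no neighbours farther apart than the pooled SD of 0.49.

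**Figure D2:**
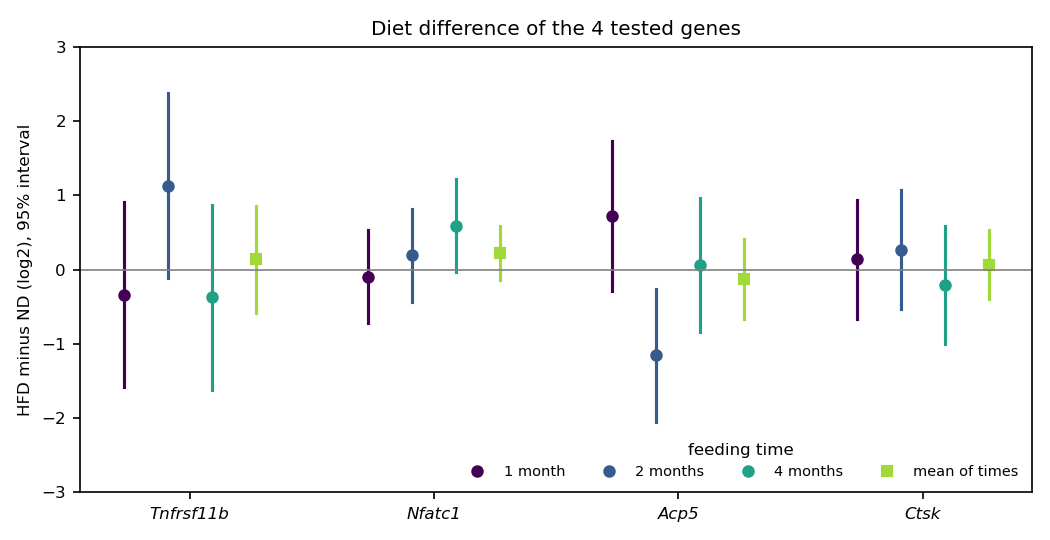
Difference between HFD and ND in log2 intensity (HFD minus ND) for the 4 genes above the filter at 1, 2 and 4 months and as the average of these; points are estimates and lines their 95% intervals. The interval of Acp5 at 2 months, -2.05 to -0.25, is the one that excludes 0, and it did not pass after adjustment.

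Between feeding times within a diet, 0 of the 4 genes passed as well. In HFD, 0 of 4 passed from 1 to 2 months, against 0.0782% of all probe sets; 0 of 4 from 2 to 4 months, against 0.704%; and 0 of 4 from 1 to 4 months, against 0%. In ND, 0 of 4 passed in each of the 3 pairs of times, against 0% in each. At an unadjusted p under 0.05 there was 1 of 4, Acp5, from 2 to 4 months in HFD and from 1 to 2 and 1 to 4 months in ND, and 0 of 4 in the other 3 pairs (limma). Over all probe sets the unadjusted share was 16.9%, 2.59% and 9.39% in the 3 pairs with Acp5 and between 7.38% and 7.92% in the others. The Acp5 difference was 1.02 ± 0.42 log2 for 4 minus 2 months in HFD, with no overlap of the arrays (adjusted p = 0.241). It was 1.23 ± 0.47 for 2 minus 1 month in ND (adjusted p = 1.00) and 1.02 ± 0.47 for 4 minus 1 month in ND (adjusted p = 0.526). The 4 minus 2 month difference in HFD passed where only the compared arrays were fitted (1.02, adjusted p = 0.0465) or with array weights (1.15, adjusted p = 0.0183), but not in the unweighted fit of all arrays. Of all probe sets, 303 and 3213 passed in these fits, against 153 in the unweighted fit of all arrays. With the mean of the macrophage genes, as a covariate, the 3 Acp5 differences were -0.01 ± 0.34, -0.09 ± 0.33 and -0.41 ± 0.34 (adjusted p = 0.997, 1.00 and 0.696). Other genes had HFD arrays that did not overlap between times without passing: Tnfrsf11b for 2 minus 1 month (1.08 ± 0.58, adjusted p = 0.715) and Ctsk for 4 minus 2 months (-0.71 ± 0.37, adjusted p = 0.352). Nfatc1 did not overlap for 2 minus 1 month (0.23 ± 0.29) or 4 minus 1 month (0.22 ± 0.29) in HFD.

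Macrophage marker genes differed between the arrays along with some of these genes. The mean of the 24 macrophage genes with a value on every array was 6.82, 8.29 and 6.70 log2 in the HFD arrays at 1 month, against 8.80, 5.29 and 4.03 in the ND arrays. At 2 months it was 4.96, 6.32 and 7.32 in the HFD arrays, against 8.97, 8.88 and 5.54 in the ND arrays. At 4 months it was 8.88, 8.43 and 8.59 in the HFD arrays, against 7.71, 9.10 and 7.37 in the ND arrays. Arrays of a group differed by up to several log2 units, and ND 2-month replicate 3, without which Acp5 passed, was the low one of its group. Of the 27 macrophage genes, 0 passed the diet test at any time; the HFD minus ND difference was positive for 24 at 1 month (median 1.56), negative for 26 at 2 months (median -1.59) and positive for 25 at 4 months (median 0.39).

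Across arrays, Acp5 was higher where macrophage genes were higher, and Ctsk and Tnfrsf11b were lower. Acp5 correlated with the macrophage mean at Pearson's r = 0.89 and Spearman's rho = 0.87 over 17 arrays; both permutation p were 1e-05, the smallest that 100000 permutations can give, and 4e-05 after adjustment over the 4 genes. Without the 2 arrays farthest from the median of the macrophage mean r was 0.86, and within the diets it was 0.89 (HFD, n = 9) and 0.93 (ND, n = 8). The relation of Ctsk ran the other way, with r = -0.66 (permutation p = 0.00362, adjusted 0.00724) and rho = -0.64 (p = 0.00462, adjusted 0.00924) over 18 arrays. Its r was -0.59 without the 2 farthest arrays, -0.81 within HFD and -0.60 within ND (n = 9 each). The 2 genes usually read together as markers of resorbing osteoclasts thus had opposite relations to the same macrophage genes.

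Tnfrsf11b had r = -0.51 (permutation p = 0.0281, adjusted 0.0375) and rho = -0.42 (p = 0.0874, adjusted 0.116) over 18 arrays, so the relation passed by r and not by rho. Without the 2 farthest arrays its r was -0.45 and no longer passed (adjusted p = 0.0839). Nfatc1 had r = 0.22 (permutation p = 0.403) and rho = 0.38 (p = 0.116), which passed by neither (adjusted 0.403 and 0.116), and its r was 0.45 without the 2 farthest arrays. After the group means had been taken off both measures, r was 0.78 for Acp5, -0.59 for Ctsk, -0.47 for Tnfrsf11b and 0.48 for Nfatc1 (adjusted permutation p = 0.00092, 0.021, 0.0479 and 0.0479). These permutations exchanged residuals freely over all arrays, although a mean per group had been taken off. The p-values therefore tend to be too small and are not read as calls. By r alone, as a description, the relations of Acp5 and Ctsk kept their direction among arrays of the same diet and time. With the macrophage mean as a covariate in the limma fit, the 2-month HFD minus ND difference was -0.48 ± 0.31 for Acp5 (adjusted p = 0.426) and 0.73 ± 0.56 for Tnfrsf11b (adjusted p = 0.517). The part of the macrophage genes in the members' differences was not tested beyond these values.

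**Figure D3:**
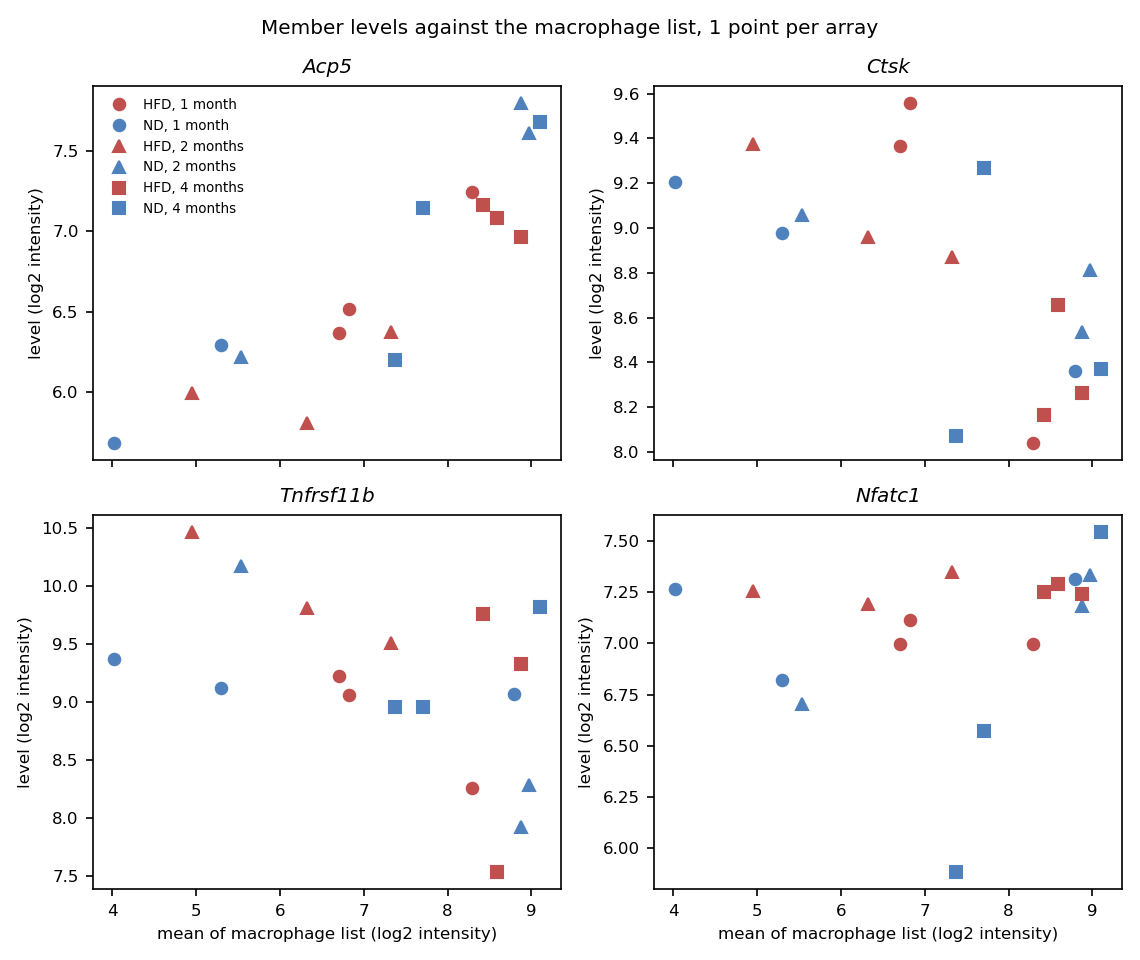
Level of Acp5, Ctsk, Tnfrsf11b and Nfatc1 (log2 intensity) against the mean of 24 macrophage genes (log2 intensity), with 1 point per array, coloured by diet and shaped by feeding time. Acp5 runs upward (r = 0.89) and Ctsk downward (r = -0.66) with the macrophage mean.

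Single genes mostly ran the same way as the list mean. Acp5 correlated positively with 26 of 27 macrophage genes (median r = 0.84) and with 12 of 14 other osteoclast genes (median r = 0.43), the highest of them Tcirg1, a subunit of the proton pump that acidifies the resorption pit and lysosomes (r = 0.91). With the stromal genes Acp5 was positive for 4 of 11 and negative for 7 (median r = -0.16), from -0.62 for Pdgfrb to 0.84 for Nt5e. Ctsk correlated negatively with 26 of 27 macrophage genes (median r = -0.61) and with 11 of 14 osteoclast genes (median r = -0.45), with Tcirg1 the lowest at r = -0.68. With the stromal genes its relation was mixed, positive for 6 of 11 and negative for 5 (median r = 0.26), from -0.63 for Pdgfra to 0.60 for the collagen gene Col1a2. Tnfrsf11b correlated negatively with 26 of 27 macrophage genes (median r = -0.52). These r are descriptions over 17 or 18 arrays that share their RNA, and genes of a list are not independent. Between the 4 genes themselves, none of the 6 pairs passed after adjustment; the strongest by r were Tnfrsf11b with Acp5 (r = -0.54, rho = -0.48, permutation p = 0.0242 and 0.0514, adjusted 0.145 and 0.181) and Acp5 with Ctsk (r = -0.49, rho = -0.47, p = 0.0494 and 0.0602, adjusted 0.148 and 0.181), and without the 2 farthest arrays their r was -0.50 and -0.43. Against the mean of 10 stromal genes, Tnfrsf11b had r = -0.58 (permutation p = 0.0124, adjusted 0.0497) and rho = -0.60 (p = 0.00949, adjusted 0.038) over 18 arrays, with r = -0.60 without the 2 farthest arrays, -0.54 within HFD and -0.74 within ND (n = 9 each). The other 3 genes did not pass (adjusted permutation p between 0.11 and 0.295 for r). With Cxcl12 and Pdgfra, which fell at 2 months, taken out of the list, r of Tnfrsf11b was -0.44 (permutation p = 0.065, adjusted 0.26) and none of the 4 passed (adjusted permutation p between 0.26 and 0.587 for r). Both forms of the stromal list were chosen after seeing the data, and the part of the stromal genes in the members' differences was not tested.

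The genes whose level followed each member most closely over the arrays were picked by Pearson's r among 11446 named genes, so their r are a description only. For Acp5 they were Dab2 (r = 0.94), an endocytic adaptor, Lmo2 (0.94), a transcriptional cofactor of blood cells, and Pld3 (0.94), a lysosomal nuclease. For Ctsk they were Zfp704 (r = 0.91), a zinc finger gene, Golim4 (0.89), a Golgi membrane protein, and Fbn1 (0.88), the microfibril protein fibrillin. For Tnfrsf11b they were Cbfa2t2 (r = 0.85), a transcriptional corepressor, Paqr6 (0.84) and Klhl12 (0.80), an adaptor of a ubiquitin ligase. For Nfatc1 they were C11h3orf70 (r = 0.90), Jund (0.87), an AP-1 subunit, and Macrod1 (0.87).

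The wider osteoclast programme was next set beside the members. Of 20 further osteoclast genes, 15 were on the array and 14 above the filter, and 0 of 14 passed at 1, 2 or 4 months or in the average. The unadjusted count was 1, 0, 0 and 1 of 14 (limma), beside 9.77%, 20.8%, 3.73% and 21.4% of all probe sets, of which 0%, 2.54%, 0% and 2.82% passed. The median HFD minus ND difference was 0.06, -0.02 and 0.17 log2 at 1, 2 and 4 months and 0.03 in the average, beside -0.06, -0.003, -0.01 and -0.02 over all tested probe sets. At 2 months the 2 with the largest moderated t were Trem2, a receptor that macrophages also carry (-1.72 ± 1.08, adjusted p = 0.374), and Tcirg1 (-0.76 ± 0.55, adjusted p = 0.438). The carbonic anhydrase gene Car2 was below the filter, and Oscar, Dcstamp, Ocstamp, Atp6v0d2 and Siglec15, which include the osteoclast fusion genes, had no annotated probe set. The osteoclast genes above the filter are ones that other cells, macrophages among them, are known to express as well.

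Within RANK signalling, 1 of 35 genes rose at 2 months, a share near the 2.54% of all tested probe sets that passed at that time. Of 39 genes, 37 were on the array and 35 above the filter; 1 rose and 0 fell at 2 months, and 0 passed at 1 month, at 4 months or in the average, with unadjusted counts of 4, 2, 0 and 3 of 35 (20.8%, 9.77%, 3.73% and 21.4% of all probe sets). The median difference was -0.05, -0.03 and 0.01 log2 at 1, 2 and 4 months. The gene that rose was Rcan1, a calcineurin inhibitor that NFAT proteins are known to induce. At 2 months it had 9.62, 9.54 and 8.90 in the HFD arrays, against 7.71, 8.62 and 8.27 in the ND arrays, with no overlap. The difference was 1.15 ± 0.24 log2 (limma, adjusted p = 0.0261); it was lost without ND 2-month replicate 1 (0.91, adjusted p = 0.124), HFD 2-month replicate 1 (1.02, 0.118) or HFD 2-month replicate 2 (1.06, 0.118), and with the compared arrays alone (adjusted p = 0.165). Ppp3ca, the catalytic subunit of calcineurin, had -0.43 ± 0.11 log2 and just missed the threshold (adjusted p = 0.0503). A second probe set of the calcineurin regulatory subunit Ppp3r1 passed in the average over the times (-0.48, adjusted p = 0.0437), while the one that stands for the gene did not (0.07, adjusted p = 0.537).

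Among genes that carry the hormone, cytokine and WNT signals known to set RANKL and OPG in stromal cells, Il6st and Tnfrsf1a fell at 2 months. Of 36 such genes, 32 were on the array and 28 above the filter; 2 fell and 0 rose at 2 months, 2 fell and 0 rose in the average, and 0 passed at 1 or 4 months, while 2.54% of all probe sets passed at 2 months and 2.82% in the average. The unadjusted counts were 8, 5, 1 and 1 of 28 in that order of comparisons, beside 20.8%, 21.4%, 9.77% and 3.73% of all probe sets. The difference was negative for 21 of 28 at 2 months, with a median of -0.22 log2, beside -0.003 over all probe sets. Il6st, the gp130 receptor subunit shared by interleukin 6 family cytokines, had 9.38, 9.04 and 9.01 in the HFD arrays at 2 months, against 10.56, 9.95 and 10.46 in the ND arrays. It fell by 1.18 log2 (SE 0.29; limma, adjusted p = 0.0463), and by 0.71 log2 (SE 0.17; adjusted p = 0.0400) in the average. Its other 3 probe sets had -1.11, -1.14 and -1.40 log2 at 2 months (adjusted p = 0.0463, 0.0561 and 0.0274). The 2-month call was lost in 13 of 18 fits that each left out 1 array, with differences between -1.37 and -1.06, and the average call in 13 of 18, with differences between -0.82 and -0.61.

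Tnfrsf1a, the main receptor of tumour necrosis factor, had 8.44, 8.27 and 8.47 in the HFD arrays at 2 months, against 8.87, 8.97 and 8.92 in the ND arrays. The groups did not overlap, and it fell by 0.52 log2 (SE 0.10; limma, adjusted p = 0.0238). The call was lost without any 1 of replicates 1 and 2 of either 2-month group, with the compared arrays alone (adjusted p = 0.135) and with the macrophage mean as a covariate (adjusted p = 0.101). Within HFD it rose by 0.53 ± 0.10 log2 for 4 minus 2 months (limma, adjusted p = 0.0429), a call lost in 11 of 18 fits that left out 1 array. In that comparison 1 of the 28 genes rose and 0 fell, while 0.704% of all tested probe sets passed. Ptger4, a prostaglandin E2 receptor, fell by 0.38 log2 in the average over the times (SE 0.09; adjusted p = 0.0468), at levels between 3.57 and 4.57 that lie near the filter, and this call was lost in 15 of 18 such fits. Tnfsf11 itself, which these receptors are known to regulate, remained below the filter in all groups, and Tnfrsf11b did not pass.

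**Figure D4:**
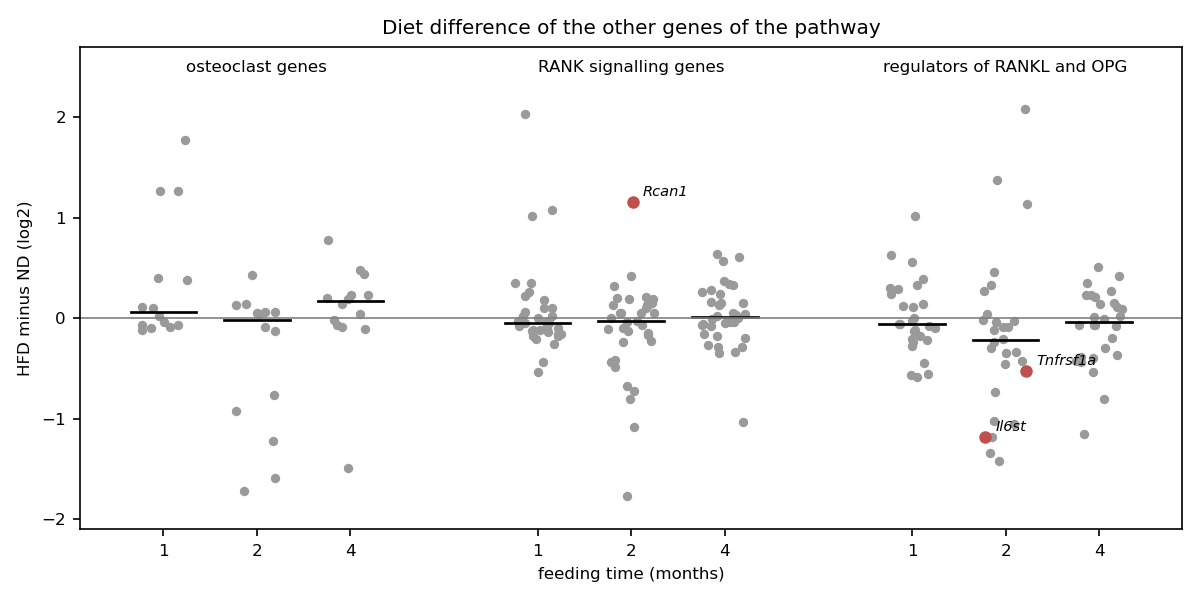
Difference between HFD and ND (HFD minus ND, log2 intensity) of the osteoclast (14), RANK signalling (35) and RANKL and OPG regulator (28) genes above the filter at 1, 2 and 4 months, with 1 point per gene and a bar at the median. Red points passed the test: Rcan1 at 1.15, Il6st at -1.18 and Tnfrsf1a at -0.52, all at 2 months.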

How the data were processed

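Total RNA was measured on 18 Affymetrix rat arrays. The authors deposited 1 linear intensity per probe set and array, summarised with RMA per the submitters' processing notes, which give no version. These intensities were converted to log2 without a pseudocount. Those of ND 1-month replicate 1 were put back by 1343 rows, which raised r against the average of the remaining arrays to 0.990, against 0.0909 before.

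Symbols came from the platform annotation, where 20832 probe sets had 1 symbol, 436 several and 9831 none. The 57 controls and the dimmest 30% of the rest by mean log2 were left out, which kept 21729 probe sets. limma 3.58.1 (R 4.3.3) was fitted to all arrays with 1 mean per group (12 residual and 2.43 prior degrees of freedom), two-sided, with Benjamini-Hochberg adjustment over all tested probe sets, and was tested on simulated data. Each gene is represented by its brightest tested probe set. Permutation tests were two-sided with 100000 permutations. Precision is limited by having 3 arrays in a group.

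The 7 genes and the gene lists were chosen with earlier results of these data known. All 7 genes are named; from each list up to 4 genes that passed per comparison, or where none passed up to 2 with the largest moderated t; and for each gene above the filter the 3 genes most like it by r. Ppp3r1 falls outside this rule and was chosen after its values were seen. The naming of Ppp3ca at 2 months falls outside it as well, since Rcan1 of the same list passed in that comparison. Alternatives covered the filter, normalization, variance model, samples, probe sets, the moved column, a covariate and a block. Replicate numbers were not taken as pairs: over 45 pairs of arrays with the same number, residuals correlated at -0.0254 on average and above 0.1 in 12.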

Additional observations from a re-analysis of the deposited data

How the results depend on the processing

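For the 4 genes above the filter, 597 results were obtained under 14 alternatives, not counting single left-out arrays. They were differences and F tests, and the F tests have no sign. Of them, 564 stayed without a call, with the same sign where they had one. A further 27 changed sign without a call and 6 became calls. Leaving out 1 array at a time gave 762, 29 and 1 of 792. No call reversed. The number of the 4 genes that passed at 2 months was 0 in the reported fit and 2 with array weights (Tnfrsf11b and Acp5). It was 1 (Acp5) with 2 arrays left out (the first of ND 1 month, the third of ND 2 months). Of the 21729 probe sets, 552, 4330 and 1319 passed in these fits in that order. Over the fits that left out 1 array, the number of the 4 genes was 0 to 1. For 4 minus 2 months in HFD it was 1 with array weights and 1 with the compared arrays only. Of all probe sets, 3213 and 303 passed there, against 153 in the reported fit. For 2 minus 1 month in ND, 1 of the 4 genes passed with the same 2 arrays left out (Acp5, 1.72, limma, adjusted p = 0.0382). Of all probe sets, 766 passed there, against 0 in the reported fit. The cause was not tested. With the replicate number as a replicate block, 0 of the 4 genes passed in each comparison, while Il6st (adjusted p = 0.0743 at 2 months, 0.0649 in the average) and Tnfrsf1a for 4 minus 2 months in HFD (adjusted p = 0.0752) lost their calls. The relation of Tnfrsf11b with the macrophage mean had r between -0.61 and -0.42 without single arrays and lost its call in 7 of these fits, among them those without HFD 2-month replicate 1, where r was -0.42; that of Acp5 lay between 0.87 and 0.91 and that of Ctsk between -0.70 and -0.61. Leaving the genes shared with the osteoclast list out of the macrophage list, an alternative chosen after seeing the data, gave r = 0.89 for Acp5 and -0.66 for Ctsk. Rcan1 kept its call in 27 of 32 settings, Tnfrsf1a at 2 months in 24 of 31 and Il6st at 2 months in 13 of 32. These settings include the displaced column as deposited, where each of these calls was lost. Signals below the filter level on every array limit what can be said of Tnfsf11, Tnfrsf11a and Calcr.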
